A study of Mus musculus with 24 samples.

Results

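A set of 33 genes known for their expression in macrophages was followed in pancreatic islets of 24 male mice. The members were taken by name: every probe of the array whose gene name was one of the 33 was used. Of the 33, 32 had a probe (43 probes in all), and 30 were tested, among 22968 genes, because 4 or more of the 24 arrays measured them well above background. Each array held islet RNA of 1 mouse, and each of 6 groups held 4 mice. C57BLKs/J (BLKS) and C57BL6/J (BL6) are related inbred strains. Mice of each strain started at 8 weeks of age on 1 of 3 diets. Fat supplied 18% of the kcal in chow and 42% in the high-fat diet (HFD), and the remaining groups ate HFD to which pioglitazone was added at 140 mg per kg (HFD+Pio). Pioglitazone activates the nuclear receptor PPAR-gamma. The duration of feeding is 12 weeks in the sample labels and 16 weeks in the series text. All values are whole-islet RNA, so they include every cell type that came with the islets.

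Islets hold resident macrophages that sit beside the capillaries and the beta cells. These cells depend on the growth factor receptor Csf1r, take up debris and antibody-coated material through scavenger and Fc receptors, make the C1q complement protein, and signal through adaptors with immunoreceptor activation motifs. Blood monocytes that enter a tissue carry the chemokine receptor Ccr2, and resident cells of many tissues carry Cx3cr1. The transcription factor PU.1, encoded by Spi1, acts at purine-rich DNA in the promoters of many myeloid genes.

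The promoters of the members are described first, and their relation to the values in the following paragraphs was not tested. The 250 bases before the start of each gene were read from RefSeq (GRCm38.p6) for the 26 members that have such a window, 29 windows in all. The purine-rich core GAGGAA was searched on both strands. It was in 15 of the 29 windows (51.7%), belonging to 13 genes, and in 23.3% of the 32851 promoter windows of that length. The windows of 5 members that were lower in BLKS and held the core are given as examples, chosen after their values were seen, with the matches in capitals (GAGGAA, or TTCCTC where the core lies on the other strand). They lie at chr4:136886201-136886450 (minus strand) for C1qb, chr4:136892915-136893164 (minus strand) for C1qc, chr3:96293970-96294219 (minus strand) for Fcgr1, chr17:48346151-48346400 (plus strand) for Trem2 and chr2:14229164-14229413 (plus strand) for Mrc1. The Mrc1 window held 3 matches and each of the others 1. Cx3cr1, Ms4a7, Fcer1g, Ccr2, Cd84, Itgax and Mpeg1, also lower in BLKS on some diet, had none in theirs. Cd68, Clec7a, Laptm5 and Marco, which did not pass between the strains with all arrays in the fit, held the core too. A match in these letters is a description and not a measured binding site.
C1qb: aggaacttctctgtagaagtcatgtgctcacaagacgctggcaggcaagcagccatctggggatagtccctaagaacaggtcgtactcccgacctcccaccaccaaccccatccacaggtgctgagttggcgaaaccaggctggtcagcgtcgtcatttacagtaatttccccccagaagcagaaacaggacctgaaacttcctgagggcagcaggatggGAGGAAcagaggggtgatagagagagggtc
C1qc: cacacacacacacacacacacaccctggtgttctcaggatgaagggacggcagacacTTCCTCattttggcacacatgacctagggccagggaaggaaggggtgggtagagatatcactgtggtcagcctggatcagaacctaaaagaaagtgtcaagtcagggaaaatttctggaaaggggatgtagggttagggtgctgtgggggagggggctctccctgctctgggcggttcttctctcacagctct
Fcgr1: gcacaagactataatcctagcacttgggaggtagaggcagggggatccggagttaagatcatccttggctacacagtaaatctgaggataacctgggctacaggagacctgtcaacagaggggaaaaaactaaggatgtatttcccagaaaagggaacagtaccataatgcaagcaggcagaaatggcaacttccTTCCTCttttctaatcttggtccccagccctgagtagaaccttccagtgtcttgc
Trem2: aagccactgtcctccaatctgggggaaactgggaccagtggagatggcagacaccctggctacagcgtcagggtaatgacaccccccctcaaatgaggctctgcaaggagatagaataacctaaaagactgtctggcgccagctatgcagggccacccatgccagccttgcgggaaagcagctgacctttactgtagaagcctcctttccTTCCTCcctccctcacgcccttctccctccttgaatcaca
Mrc1: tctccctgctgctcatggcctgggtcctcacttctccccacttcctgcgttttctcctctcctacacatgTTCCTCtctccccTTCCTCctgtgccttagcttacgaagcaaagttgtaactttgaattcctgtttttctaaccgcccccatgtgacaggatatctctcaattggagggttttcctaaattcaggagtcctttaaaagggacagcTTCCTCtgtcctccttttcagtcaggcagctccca

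The islet label was borne out by the hormone genes, with Ins2 and Gcg well above background on all 24 arrays. RNA of acinar cells was also present, in very uneven amount. The mean log2 level of 11 acinar genes ranged from -2.8 to 8.1 (median 6.1) in BLKS islets. In BL6 islets it ranged from 0.1 to 7.9 (median 5.9). The acinar gene Cpa1 was well above background on all 24 arrays. Markers of T and B cells differed widely between mice within a group: the mean log2 level of the 2 marker lists ranged from -3.50 to 0.96 in BLKS islets and from -3.48 to 2.16 in BL6 islets, with a median of -3.12 in BLKS and -3.20 in BL6. It stood more than 1 log2 unit above the median of all arrays on 8 arrays, and these lay in all 6 groups. Other cell types were near background in part: of the listed genes on the array, 5 of 12 for neutrophils, 3 of 7 for mast cells and 1 of 6 for adipocytes were kept, with S100a8 well above background on 2 arrays, Cpa3 on 2 and Adipoq on 0. The neutrophil genes Elane and Camp were well above background on all 24 arrays, and Camp was lower in BLKS on chow (-0.41 ± 0.16, adjusted p = 0.0475) and on HFD+Pio (-0.54 ± 0.16, adjusted p = 0.00971). Ptprc (CD45, on all leukocytes) did not pass the test between the strains on any diet. The arrays lay on 4 slides. BLKS on HFD and on HFD+Pio shared a slide, BL6 on chow and on HFD shared another, and BLKS on chow and BL6 on HFD+Pio shared the other two, so slide and strain cannot be told apart within a diet.

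The main difference was between the strains. Of the 30 macrophage genes tested, 10 were lower and 1 was higher in BLKS than in BL6 islets on chow, 16 were lower and 1 higher on HFD, and 20 were lower and 1 higher on HFD+Pio (limma, adjusted p under 0.05). Among all 22968 genes, 41.6% passed on chow (20.9% lower and 20.6% higher), 49.9% on HFD (26.7% lower and 23.2% higher) and 45.8% on HFD+Pio (22.8% lower and 23% higher). Averaged over the 3 diets, 20 members were lower and 1 higher, beside 34.5% and 30.1% of all genes (64.7% in all). Fcgr1 and Mrc1 were measured in BL6 alone and Ccr2 on 1 BLKS array, so these members were kept through the strain in which they are high. Among the 22 members well above background on all 24 arrays, 6 were lower and 1 higher on chow, 12 and 1 on HFD, and 15 and 1 on HFD+Pio. Of all genes, 8239, 9830 and 8966 passed on these diets with that filter, and their share of the genes so filtered was not computed. The median log2 difference of the 30 members was -0.30 on chow, -0.78 on HFD and -1.17 on HFD+Pio, where that of all genes was -0.03, -0.05 and -0.04. With normexp and quantile normalization the HFD median was -0.46, and without the arrays of high T and B cell level the chow median was -0.48. On HFD+Pio the lists of other leukocytes also had negative medians, -1.27 for 15 general leukocyte genes, -1.14 for 12 T cell genes and -1.43 for 9 B cell genes, with 0, 1 and 0 genes lower by the test, and the counts without the arrays of high T and B cell level are given further on. On chow these medians were 0.15, 0.65 and 0.77, and on HFD -0.29, -0.16 and 0.77. All BLKS arrays lay below all BL6 arrays of the same diet for 12 members on chow (24.1% of all genes), 14 on HFD (20.8%) and 15 on HFD+Pio (18.4%), and above them for 3 (22.7%), 1 (19.2%) and 1 (20.3%). With all 12 arrays of each strain, 5 members lay below (8.59% of all genes) and 1 above (10.8%). The lower counts of each diet include Fcgr1, Mrc1 and Ccr2, which were kept through BL6. The 5 members were Cx3cr1, Ms4a7, Emr1, Fcgr1 and Mrc1, and of these Fcgr1 and Mrc1 were measured in BL6 alone. With BLKS chow set against BL6 HFD+Pio, the groups that shared slides, and slide in the fit, 18 members were lower and 1 higher, beside 21.1% and 22.4% of all genes, although diet also differs there. Fcgr1, Mrc1 and Ccr2 are among these 18 as well. In whole-islet RNA, fewer macrophages, less of a transcript per macrophage and a different level in other cells cannot be told apart. Which cells gave the signal of each member was not tested.

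**Figure D1:**
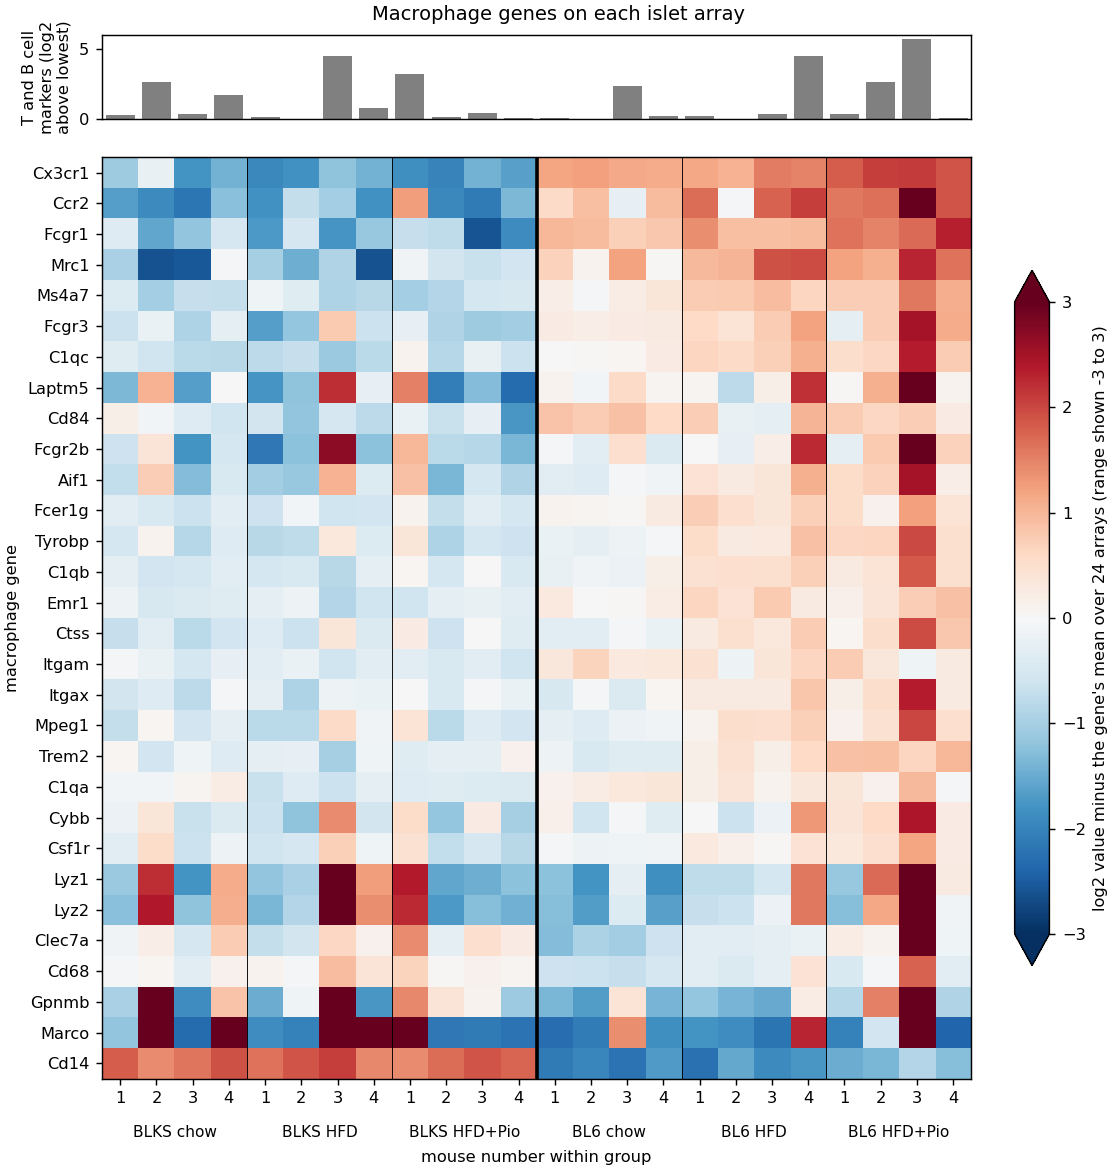
Each row is a macrophage gene and each column an array, with the BLKS groups left of the BL6 groups; colour gives the log2 value minus the gene's mean over 24 arrays, and the bars give the mean of T and B cell markers above the lowest array. Cx3cr1, Fcgr1, Mrc1 and Ms4a7 are below their mean in BLKS and above it in BL6 on nearly every array, Cd14 is the reverse, and Marco, Gpnmb, Lyz1 and Lyz2 are high on the arrays with tall bars.

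Chemokine receptors and integrins were lower in BLKS islets, with Cx3cr1 furthest apart. Levels are log2 intensities relative to the 75th percentile of the array, given for mice 1 to 4 of each group. Cx3cr1, the receptor for fractalkine, stood in BLKS islets at -1.55, -0.69, -2.28 and -1.90 on chow, -2.40, -2.28, -1.67 and -1.89 on HFD, and -2.31, -2.47, -1.88 and -2.09 on HFD+Pio. BL6 islets had Cx3cr1 values of 0.72, 0.76, 0.66 and 0.64 on chow, 0.69, 0.57, 1.07 and 1.01 on HFD, and 1.35, 1.59, 1.62 and 1.41 on HFD+Pio. All 12 BLKS arrays lay below all 12 BL6 arrays, and the BL6 values were highest on HFD+Pio. The BLKS minus BL6 log2 difference of Cx3cr1 was -2.30 ± 0.24 (adjusted p = 1.19e-07) on chow, -2.89 ± 0.24 (adjusted p = 3.93e-09) on HFD and -3.68 ± 0.24 (adjusted p = 1.44e-10) on HFD+Pio. A second Cx3cr1 probe was well above background on 12 of 12 BL6 arrays and on 1 of 12 BLKS arrays.

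Ccr2, the receptor that brings monocytes into tissue, was dim: its BLKS values were -6.43, -6.69, -6.96 and -6.04 on chow, -6.61, -5.50, -5.81 and -6.59 on HFD, and -3.54, -6.72, -6.92 and -6.12 on HFD+Pio. In BL6 islets Ccr2 was at -4.20, -3.88, -5.04 and -3.83 on chow, -3.10, -4.81, -3.02 and -2.71 on HFD, and -3.21, -3.13, -1.06 and -2.91 on HFD+Pio. It was well above background on 1 of 12 BLKS arrays, a pioglitazone mouse with a high T and B cell marker level, and on 9 of 12 BL6 arrays. Where it was not well above background on any BLKS array, Ccr2 was at least 1.32-fold lower in BLKS on chow (adjusted p = 0.00542) and at least 2.59-fold lower on HFD (adjusted p = 0.00116), and on HFD+Pio, with 1 of 4 BLKS arrays well above background, the log2 difference was -3.25 ± 0.62 (adjusted p = 0.000233). With normexp background correction and quantile normalization the chow difference was -0.38 (adjusted p = 0.0933) and the HFD difference -0.40 (adjusted p = 0.0661), which did not pass.

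Itgam, the integrin chain CD11b of myeloid cells, had values in BLKS islets of 5.08, 4.94, 4.61 and 4.88 on chow, 4.82, 4.92, 4.53 and 4.82 on HFD, and 4.78, 4.68, 4.79 and 4.52 on HFD+Pio. The BL6 values of Itgam were 5.47, 5.80, 5.42 and 5.44 on chow, 5.58, 4.98, 5.49 and 5.78 on HFD, and 5.90, 5.47, 5.01 and 5.40 on HFD+Pio. The BLKS arrays lay below the BL6 arrays within each diet. Its log2 difference was -0.66 ± 0.17 (adjusted p = 0.00373) on chow, -0.68 ± 0.17 (adjusted p = 0.00225) on HFD and -0.75 ± 0.17 (adjusted p = 0.00108) on HFD+Pio, and its other probes differed by -0.38 ± 0.10 and -0.40 ± 0.14 over the 3 diets. Those probes were far dimmer, with BL6 chow means of -1.31 and -3.13, where the probe used had 5.53. Which cells gave the bright probe its signal was not tested. Itgax, the integrin chain CD11c, is carried by macrophages and dendritic cells, and BLKS islets had -0.69, -0.52, -0.91 and -0.18 on chow, -0.44, -1.06, -0.28 and -0.34 on HFD, and -0.14, -0.60, -0.17 and -0.34 on HFD+Pio. For Itgax the BL6 islets gave -0.62, -0.21, -0.58 and -0.09 on chow, 0.12, 0.14, 0.13 and 0.69 on HFD, and 0.03, 0.39, 2.22 and 0.14 on HFD+Pio. The strains overlapped on chow and were apart on HFD and on HFD+Pio, where BL6 mouse 3 was far above the other mice. The Itgax difference was -0.20 ± 0.34 (adjusted p = 0.668) on chow, -0.80 ± 0.34 (adjusted p = 0.0545) on HFD and -1.01 ± 0.34 (adjusted p = 0.0183) on HFD+Pio. It passed on HFD+Pio alone, and not without BL6 HFD+Pio mouse 3 (adjusted p = 0.0533) or BLKS HFD+Pio mouse 2 (adjusted p = 0.053).

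**Figure D2:**
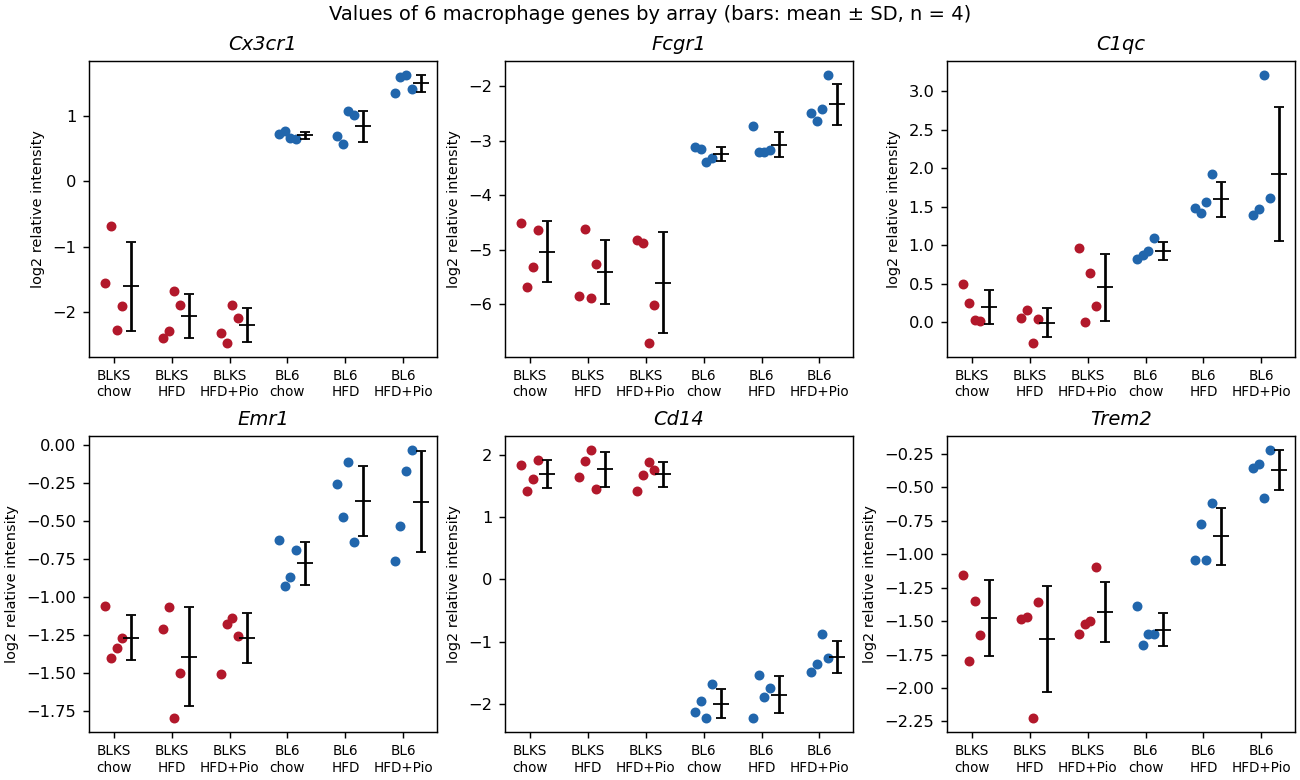
Log2 relative intensity (y axis) of 6 macrophage genes on each array, with the BLKS groups in red left of the BL6 groups in blue; points are mice, and bars give the mean ± SD of 4 mice. BLKS points lie below BL6 points for Cx3cr1, Fcgr1, C1qc and Emr1 on every diet and above them for Cd14, while Trem2 overlaps on chow and is lower in BLKS on HFD and HFD+Pio.

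All 3 chains of C1q, which starts the classical complement pathway, were lower in BLKS islets on HFD and on HFD+Pio, and 1 of the 3 on chow. C1qa stood in BLKS islets at 2.50, 2.49, 2.67 and 2.79 on chow, 1.92, 2.19, 1.93 and 2.31 on HFD, and 2.19, 2.22, 2.17 and 2.14 on HFD+Pio. C1qa in BL6 islets was at 2.70, 2.79, 2.90 and 2.93 on chow, 2.76, 2.97, 2.68 and 2.91 on HFD, and 2.94, 2.72, 3.55 and 2.54 on HFD+Pio. The strains overlapped on chow and were apart on both high-fat diets. Its strain difference was -0.22 ± 0.15 (adjusted p = 0.265) on chow, -0.74 ± 0.15 (adjusted p = 0.000406) on HFD and -0.76 ± 0.15 (adjusted p = 0.000359) on HFD+Pio. C1qb in BLKS islets was 0.56, 0.28, 0.33 and 0.52 on chow, 0.32, 0.41, 0.02 and 0.57 on HFD, and 0.91, 0.34, 0.84 and 0.40 on HFD+Pio. The matching BL6 values of C1qb were 0.63, 0.75, 0.68 and 1.03 on chow, 1.32, 1.37, 1.33 and 1.58 on HFD, and 1.13, 1.26, 2.70 and 1.33 on HFD+Pio. BLKS arrays were below BL6 arrays on each diet, and BL6 mouse 3 on HFD+Pio stood far above its group. The C1qb difference was -0.35 ± 0.24 (adjusted p = 0.261) on chow, -1.07 ± 0.24 (adjusted p = 0.000955) on HFD and -0.99 ± 0.24 (adjusted p = 0.00211) on HFD+Pio.

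C1qc, the third chain, had BLKS values of 0.49, 0.25, 0.03 and 0.02 on chow, 0.05, 0.15, -0.27 and 0.05 on HFD, and 0.96, -0.00, 0.64 and 0.22 on HFD+Pio. BL6 islets held C1qc at 0.83, 0.88, 0.92 and 1.10 on chow, 1.49, 1.42, 1.56 and 1.92 on HFD, and 1.39, 1.47, 3.21 and 1.61 on HFD+Pio. No BLKS array reached a BL6 array of the same diet. The difference was -0.73 ± 0.29 (adjusted p = 0.048) on chow, -1.60 ± 0.29 (adjusted p = 0.000113) on HFD and -1.47 ± 0.29 (adjusted p = 0.0003) on HFD+Pio. The chow call of C1qc was at the threshold: it was lost without any 1 of 7 of the 8 chow mice, with adjusted p between 0.0669 and 0.108. The C1q genes lie next to each other on chromosome 4, and their probes were at chr4:136452409-136452468 (C1qa), chr4:136445766-136445825 (C1qc) and chr4:136436578-136436637 (C1qb) in the mm9 coordinates of the files.

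The 4 adaptors and activating receptors of the set were all lower in BLKS islets on HFD and on HFD+Pio, and 2 of them (Fcer1g and Cd84) on chow. Fcer1g, the gamma chain that carries the signal of Fc receptors, was at 1.73, 1.59, 1.39 and 1.70 on chow, 1.42, 1.97, 1.44 and 1.47 on HFD, and 2.15, 1.33, 1.72 and 1.51 on HFD+Pio in BLKS islets. Fcer1g in BL6 islets stood at 2.15, 2.14, 2.08 and 2.31 on chow, 2.79, 2.56, 2.41 and 2.75 on HFD, and 2.60, 2.18, 3.27 and 2.45 on HFD+Pio. BLKS arrays were below BL6 arrays within each diet. The Fcer1g difference was -0.56 ± 0.19 (adjusted p = 0.0238) on chow, -1.05 ± 0.19 (adjusted p = 0.000133) on HFD and -0.95 ± 0.19 (adjusted p = 0.00041) on HFD+Pio, and its chow call was lost without BL6 chow mouse 4 (adjusted p = 0.0632) or BLKS chow mouse 3 (adjusted p = 0.0729). Tyrobp, the adaptor DAP12 that pairs with Trem2, was at 0.84, 1.46, 0.50 and 0.98 on chow, 0.53, 0.61, 1.68 and 0.96 on HFD, and 1.72, 0.43, 0.83 and 0.74 on HFD+Pio in BLKS islets. Tyrobp in BL6 islets was 1.17, 1.06, 1.20 and 1.30 on chow, 1.91, 1.63, 1.66 and 2.24 on HFD, and 1.98, 2.00, 3.35 and 1.85 on HFD+Pio. Strains overlapped on chow and, through BLKS mouse 3, on HFD, and were apart on HFD+Pio. The Tyrobp difference was -0.24 ± 0.32 (adjusted p = 0.582) on chow, -0.92 ± 0.32 (adjusted p = 0.0216) on HFD and -1.36 ± 0.32 (adjusted p = 0.00146) on HFD+Pio; the HFD call was lost without BL6 HFD mouse 4 (adjusted p = 0.0667), BLKS HFD mouse 1 (adjusted p = 0.0709) or BLKS HFD mouse 2 (adjusted p = 0.063).

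Trem2, a receptor for lipids and cell debris, passed between the strains on both high-fat diets. BLKS islets gave Trem2 values of -1.15, -1.80, -1.35 and -1.60 on chow, -1.48, -1.47, -2.23 and -1.36 on HFD, and -1.60, -1.52, -1.50 and -1.10 on HFD+Pio. Trem2 in BL6 islets was -1.38, -1.68, -1.60 and -1.60 on chow, -1.04, -0.77, -1.04 and -0.62 on HFD, and -0.35, -0.32, -0.58 and -0.22 on HFD+Pio. On chow the strains overlapped, and on HFD and HFD+Pio every BLKS array was below every BL6 array. The strain difference of Trem2 was 0.09 ± 0.17 (adjusted p = 0.726) on chow, -0.77 ± 0.17 (adjusted p = 0.000971) on HFD and -1.06 ± 0.17 (adjusted p = 4e-05) on HFD+Pio. Cd84, a homophilic receptor on leukocytes, was dim, at -3.99, -4.26, -4.55 and -4.77 on chow, -4.71, -5.35, -4.66 and -4.96 on HFD, and -4.37, -4.84, -4.40 and -5.91 on HFD+Pio in BLKS islets. Cd84 in BL6 islets was at -3.32, -3.41, -3.30 and -3.57 on chow, -3.42, -4.38, -4.44 and -3.16 on HFD, and -3.41, -3.55, -3.44 and -3.92 on HFD+Pio. The groups did not overlap on any diet. The Cd84 difference was -0.99 ± 0.31 (adjusted p = 0.013) on chow and -1.30 ± 0.31 (adjusted p = 0.00159) on HFD+Pio, and on HFD, where it was not well above background on any BLKS array, it was at least 1.88-fold lower in BLKS (adjusted p = 0.00652). With normexp and quantile normalization the Cd84 values were -0.28 (adjusted p = 0.00369), -0.20 (adjusted p = 0.0306) and -0.27 (adjusted p = 0.00488). A second Cd84 probe was well above background on 5 of 24 arrays, and with the mean of both probes the chow difference was -0.22 (adjusted p = 0.754).

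Of the 3 Fc receptors, which bind the tails of antibodies, Fcgr1 was lower in BLKS on each diet and Fcgr3 on both high-fat diets. Fcgr2b did not pass with all arrays in the fit and no T and B cell covariate. Fcgr1, the high-affinity receptor, stood in BLKS islets at -4.52, -5.68, -5.31 and -4.63 on chow, -5.85, -4.63, -5.89 and -5.26 on HFD, and -4.82, -4.88, -6.72 and -6.01 on HFD+Pio. Fcgr1 in BL6 islets was -3.11, -3.16, -3.40 and -3.32 on chow, -2.74, -3.21, -3.21 and -3.17 on HFD, and -2.49, -2.63, -2.43 and -1.79 on HFD+Pio. It was well above background on 0 of 12 BLKS arrays and on 12 of 12 BL6 arrays. Fcgr1 was at least 2.61-fold lower in BLKS on chow (adjusted p = 0.00044), at least 2.83-fold on HFD (adjusted p = 2.12e-05) and at least 4.7-fold on HFD+Pio (adjusted p = 3.23e-07). With normexp and quantile normalization the log2 differences of Fcgr1 were -0.38 (adjusted p = 0.000677), -0.43 (adjusted p = 0.00016) and -0.77 (adjusted p = 1.29e-07) on these diets. Fcgr3, a low-affinity activating receptor, was at -3.33, -2.88, -3.61 and -2.95 on chow, -4.33, -3.82, -1.90 and -3.31 on HFD, and -2.93, -3.59, -3.75 and -3.71 on HFD+Pio in BLKS islets. Fcgr3 in BL6 islets gave -2.43, -2.47, -2.42 and -2.40 on chow, -2.09, -2.25, -1.92 and -1.47 on HFD, and -2.94, -1.95, -0.18 and -1.56 on HFD+Pio. Strains were apart on chow and overlapped on the other diets through single mice, BLKS mouse 3 on HFD among them. The Fcgr3 difference was -0.76 ± 0.46 (adjusted p = 0.196) on chow, -1.41 ± 0.46 (adjusted p = 0.0149) on HFD and -1.84 ± 0.46 (adjusted p = 0.00253) on HFD+Pio. With normexp and quantile normalization the HFD value of Fcgr3 was -0.47 (adjusted p = 0.0816), and without BLKS HFD mouse 1 its adjusted p was 0.0667. Fcgr2b, the inhibitory receptor, ranged from -5.18 to -0.35 (median -3.86) in BLKS and from -3.47 to 0.45 (median -2.93) in BL6 islets.

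Pattern-recognition and scavenger receptors split. Cd14, which hands bacterial lipopolysaccharide to Toll-like receptors, was the single member higher in BLKS islets, on each diet: its values were 1.83, 1.42, 1.61 and 1.91 on chow, 1.64, 1.90, 2.08 and 1.44 on HFD, and 1.42, 1.68, 1.89 and 1.75 on HFD+Pio. Cd14 in BL6 islets was -2.12, -1.96, -2.21 and -1.68 on chow, -2.22, -1.53, -1.89 and -1.75 on HFD, and -1.48, -1.35, -0.87 and -1.27 on HFD+Pio. All 12 BLKS arrays lay above all 12 BL6 arrays by a wide margin. The Cd14 difference was 3.68 ± 0.17 (adjusted p = 1.46e-12) on chow, 3.61 ± 0.17 (adjusted p = 1.76e-12) on HFD and 2.93 ± 0.17 (adjusted p = 4.21e-11) on HFD+Pio, which is 12.9-fold, 12.2-fold and 7.6-fold higher in BLKS on these diets. Mrc1, the mannose receptor CD206, went the other way, with BLKS values of -5.09, -6.73, -6.66 and -4.16 on chow, -5.12, -5.57, -5.02 and -6.73 on HFD, and -4.21, -4.67, -4.78 and -4.69 on HFD+Pio. Mrc1 in BL6 islets was -3.42, -4.00, -2.90 and -4.09 on chow, -3.14, -3.10, -2.19 and -2.16 on HFD, and -2.90, -3.05, -1.83 and -2.48 on HFD+Pio. No BLKS array and every BL6 array was well above background. Mrc1 was at least 1.96-fold lower in BLKS on chow (adjusted p = 0.00189), at least 4.39-fold on HFD (adjusted p = 4.26e-05) and at least 3.91-fold on HFD+Pio (adjusted p = 0.00193). With normexp and quantile normalization the log2 differences of Mrc1 were -0.38 (adjusted p = 0.0152), -0.58 (adjusted p = 0.000396) and -0.63 (adjusted p = 0.000205). Clec7a, the beta-glucan receptor, ranged up to 1.14 (median -0.12) in BLKS and from -1.57 to 2.88 (median -0.59) in BL6 islets, and Marco, a scavenger receptor, from -4.30 to 3.83 (median -3.52) in BLKS and from -4.37 to 1.31 (median -3.85) in BL6 islets. Neither passed between the strains on any diet. Cd163, a haemoglobin scavenger receptor, was well above background on 0 arrays, and the 2 probes of Msr1, the class A scavenger receptor, on 3 and 2 arrays, so neither gene was tested.

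Among general macrophage genes, Ms4a7 and Emr1 were lower in BLKS on each diet. Ms4a7, a membrane protein of tissue macrophages, was at 0.59, -0.02, 0.31 and 0.30 on chow, 0.87, 0.65, 0.09 and 0.16 on HFD, and -0.03, 0.12, 0.49 and 0.53 on HFD+Pio in BLKS islets. Ms4a7 in BL6 islets was 1.21, 0.98, 1.22 and 1.38 on chow, 1.76, 1.79, 1.94 and 1.66 on HFD, and 1.74, 1.75, 2.58 and 2.09 on HFD+Pio. All 12 BLKS arrays lay below all 12 BL6 arrays. The Ms4a7 difference was -0.90 ± 0.19 (adjusted p = 0.000758) on chow, -1.35 ± 0.19 (adjusted p = 8.49e-06) on HFD and -1.76 ± 0.19 (adjusted p = 2.91e-07) on HFD+Pio. Emr1, a macrophage surface receptor now named Adgre1, was at -1.06, -1.40, -1.34 and -1.27 on chow, -1.21, -1.07, -1.80 and -1.50 on HFD, and -1.51, -1.18, -1.14 and -1.26 on HFD+Pio in BLKS islets. Emr1 in BL6 islets was -0.63, -0.93, -0.87 and -0.70 on chow, -0.26, -0.48, -0.11 and -0.64 on HFD, and -0.76, -0.53, -0.18 and -0.03 on HFD+Pio. Here too no BLKS array reached a BL6 array. The Emr1 difference was -0.49 ± 0.17 (adjusted p = 0.0221) on chow, -1.02 ± 0.17 (adjusted p = 3.28e-05) on HFD and -0.89 ± 0.17 (adjusted p = 0.000158) on HFD+Pio. Its chow call was lost without BL6 chow mouse 1 or 4 (adjusted p = 0.0641 and 0.0544) or BLKS chow mouse 2 or 3 (adjusted p = 0.061 and 0.0522), and its second probe differed by -0.73 ± 0.12 over the 3 diets.

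Csf1r, Mpeg1 and Aif1 passed between the strains on HFD+Pio and not on chow or HFD. Csf1r, the receptor for the growth factor Csf1, was at 2.67, 3.57, 2.37 and 2.88 on chow, 2.41, 2.52, 3.74 and 2.89 on HFD, and 3.49, 2.28, 2.53 and 2.20 on HFD+Pio in BLKS islets. Csf1r in BL6 islets was 2.97, 2.88, 2.90 and 2.93 on chow, 3.33, 3.17, 3.06 and 3.45 on HFD, and 3.33, 3.54, 4.21 and 3.27 on HFD+Pio. The strains overlapped on each diet, and mice with a high T and B cell level were the highest of the BLKS groups. The Csf1r difference was -0.04 ± 0.30 (adjusted p = 0.923) on chow, -0.36 ± 0.30 (adjusted p = 0.337) on HFD and -0.96 ± 0.30 (adjusted p = 0.0125) on HFD+Pio. Of the other Csf1r probes, 1 was higher in BLKS (0.25 ± 0.07, adjusted p = 0.00209) and 1 did not pass (-0.25 ± 0.23), so the direction depended on the probe, and without BL6 HFD+Pio mouse 3 the call was lost (adjusted p = 0.0508). Mpeg1, the pore-forming perforin-2, had BLKS values of 0.53, 1.30, 0.68 and 0.96 on chow, 0.44, 0.43, 1.83 and 1.14 on HFD, and 1.66, 0.44, 0.87 and 0.68 on HFD+Pio. Mpeg1 in BL6 islets was 0.97, 0.86, 1.07 and 1.15 on chow, 1.35, 1.77, 1.74 and 1.97 on HFD, and 1.36, 1.69, 3.25 and 1.75 on HFD+Pio. The strains overlapped on each diet through BLKS mice with high T and B cell markers. The Mpeg1 difference was -0.15 ± 0.35 (adjusted p = 0.773) on chow, -0.75 ± 0.35 (adjusted p = 0.0839) on HFD and -1.10 ± 0.35 (adjusted p = 0.0144) on HFD+Pio, lost without BL6 HFD+Pio mouse 3 (adjusted p = 0.0653) or BLKS HFD+Pio mouse 2 (adjusted p = 0.0519).

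Aif1, the actin-binding protein Iba1, was at 0.12, 1.60, -0.45 and 0.41 on chow, -0.18, -0.28, 1.91 and 0.43 on HFD, and 1.73, -0.51, 0.33 and -0.04 on HFD+Pio in BLKS islets. Aif1 in BL6 islets was 0.53, 0.46, 0.80 and 0.74 on chow, 1.30, 1.12, 1.22 and 1.93 on HFD, and 1.40, 1.54, 3.35 and 1.06 on HFD+Pio. Values were spread widely in BLKS and overlapped with BL6. The Aif1 difference was -0.21 ± 0.54 (adjusted p = 0.786) on chow, -0.92 ± 0.54 (adjusted p = 0.169) on HFD and -1.46 ± 0.54 (adjusted p = 0.0337) on HFD+Pio, and it was lost without BL6 HFD+Pio mouse 3 (adjusted p = 0.141) or BLKS HFD+Pio mouse 2, 3 or 4 (adjusted p = 0.115, 0.0622 and 0.0848). Ctss, the lysosomal protease cathepsin S, was at 2.53, 2.89, 2.41 and 2.65 on chow, 2.85, 2.58, 3.58 and 2.79 on HFD, and 3.47, 2.60, 3.22 and 2.87 on HFD+Pio in BLKS islets. Ctss in BL6 islets was 2.89, 2.91, 3.16 and 3.03 on chow, 3.49, 3.69, 3.54 and 3.99 on HFD, and 3.29, 3.74, 5.18 and 4.03 on HFD+Pio. Single BLKS mice overlapped with BL6 on each diet. The Ctss difference was -0.38 ± 0.29 (adjusted p = 0.321) on chow, -0.73 ± 0.29 (adjusted p = 0.042) on HFD and -1.02 ± 0.29 (adjusted p = 0.00672) on HFD+Pio, and its HFD call was lost without any 1 of 6 of the 8 HFD mice (adjusted p between 0.0527 and 0.118).

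The other 9 members did not pass in any comparison of the group means with all arrays in the fit. With the T and B cell mean as a covariate, 5 of them passed between the strains over the 3 diets: Laptm5, Fcgr2b and Cybb were lower and Cd68 and Marco higher in BLKS. Cd68, a lysosomal glycoprotein, ranged from 0.10 to 1.36 (median 0.53) in BLKS and from -0.25 to 2.21 (median 0.06) in BL6 islets, and its 2 probes differed: the brighter differed by 0.35 ± 0.20 over the 3 diets (adjusted p = 0.127) and the other, well above background on 2 of 12 BLKS and 9 of 12 BL6 arrays, was dimmer in BLKS (adjusted p = 0.00207). Laptm5, a lysosomal protein of leukocytes, ranged from -3.01 to 1.51 (median -1.96) in BLKS and from -1.49 to 2.90 (median -0.59) in BL6 islets. Cybb, the catalytic subunit of the phagocyte oxidase, ranged from -4.41 to -1.79 (median -3.71) in BLKS and from -3.85 to -0.79 (median -3.13) in BL6 islets. These genes covered several log2 units within each strain. Lysozyme genes Lyz1 and Lyz2 ranged from 0.01 to 5.15 (median 0.74) and from -1.84 to 3.21 (median -1.16) in BLKS islets, and from -0.05 to 5.58 (median 1.14) and from -1.81 to 3.76 (median -0.65) in BL6 islets; the pair are near-identical neighbours, so their probes may share signal. Gpnmb, a glycoprotein of lipid-laden macrophages, was well above background on 4 BLKS and 2 BL6 arrays. Spi1 was absent under that name, and the array lists it by its older name Sfpi1, which was well above background on 5 arrays and lies outside the rule.

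**Figure D3:**
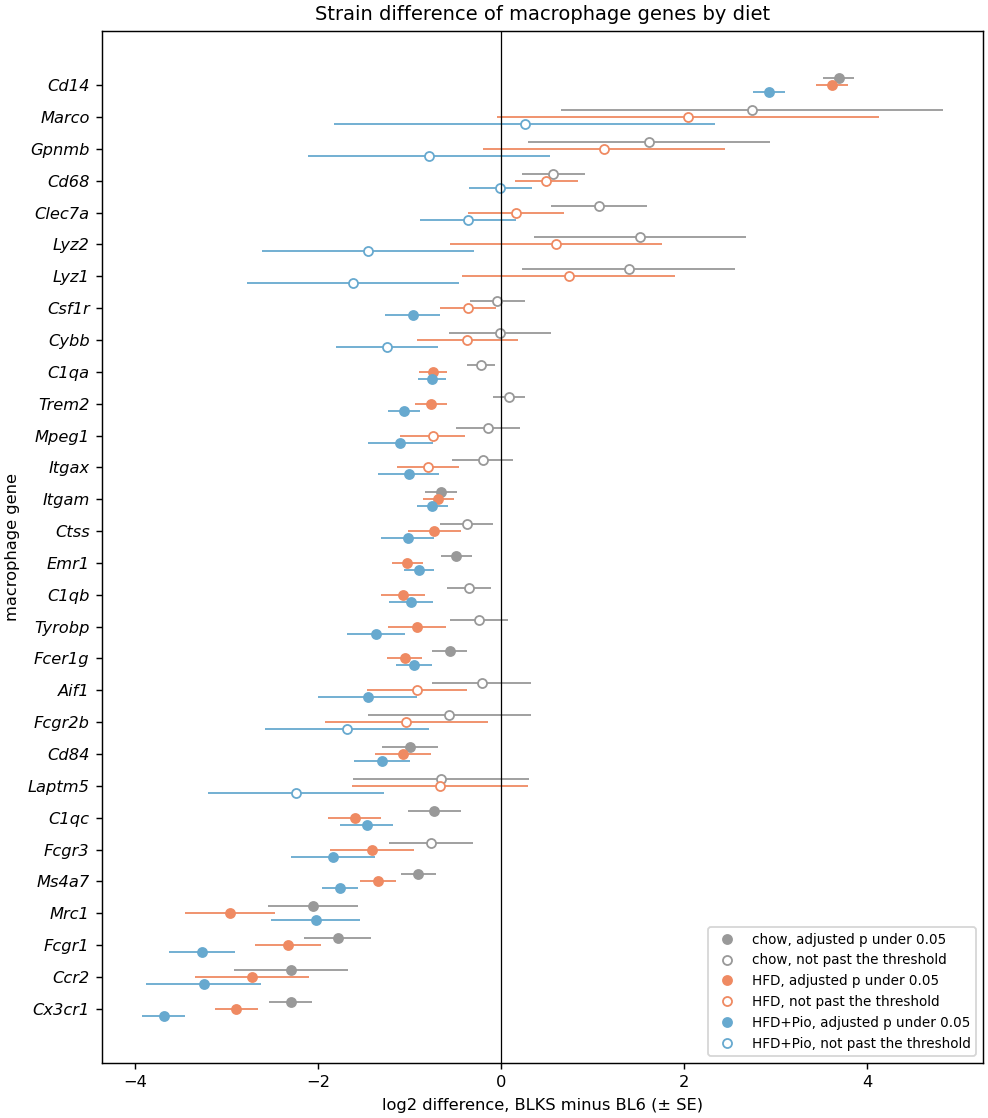
Log2 difference, BLKS minus BL6 (x axis, ± SE), of the 30 macrophage genes on chow, HFD and HFD+Pio; filled points passed an adjusted p of 0.05. Points lie left of 0 for most genes, with Cx3cr1 at -2.30, -2.89 and -3.68 and Cd14 alone filled to the right, at 3.68, 3.61 and 2.93. Fcgr1, Mrc1, Ccr2 and, on HFD, Cd84 were not well above background in most BLKS islets.

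In BL6 islets no single member passed between HFD and chow. HFD minus chow was positive for 27 of 30 members with a median of 0.54, where the median of all genes was -0.00. The test called 0 of 30 members (limma, with 8 at an unadjusted p under 0.05; 0.0435% of all genes were called). Trem2 had the smallest p, at 0.70 ± 0.17 (adjusted p = 0.238), then Ms4a7 at 0.59 ± 0.19 (adjusted p = 0.541) and C1qb at 0.63 ± 0.24 (adjusted p = 0.724). For 14 members all 4 HFD arrays lay above all 4 chow arrays, which held for 2.65% of all genes: Trem2, Ms4a7, C1qb, C1qc, Fcer1g, Tyrobp, Ctss, Mpeg1, Itgax, Aif1, Cd68, Clec7a, Csf1r and Fcgr3. These 8 arrays shared a slide. Genes of other cell types were positive in the same comparison, with a median of 2.04 for 11 genes of acinar cells (11 positive), 0.89 for 12 T cell genes (12 positive), 0.61 for 15 general leukocyte genes (14 positive) and 0.18 for 9 B cell genes (7 positive), and 0 of them passed. The part of the acinar genes in the members' values was not tested. Without the arrays of high T and B cell level, 1 of them in each group, the median was 0.37 and 0 members passed (0% of all genes).

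Trem2 was higher in BL6 islets on HFD+Pio than on chow, a comparison in which diet and drug both differ. It gave a Trem2 difference of 1.19 ± 0.17 (adjusted p = 0.00331), the single member of 30 to pass, where 0.279% of all genes were called (0.126% higher). Trem2 averaged -1.56 ± 0.13 on chow, -0.87 ± 0.21 on HFD and -0.37 ± 0.15 on HFD+Pio (log2 relative intensity, SD, n = 4 each), and no arrays of neighbouring groups overlapped. HFD+Pio minus HFD, in which the drug and the slides differ and the diet does not, was 0.50 ± 0.17 (adjusted p = 0.303) and did not pass. Trem2 was called against chow also without the arrays of high T and B cell level, at 1.27 ± 0.15 (adjusted p = 0.0111), where 0.0784% of all genes were higher. Only mice 1 and 4 of HFD+Pio were left in that fit. The HFD+Pio arrays of BL6 lay on other slides than its chow and HFD arrays. Slide therefore cannot be told apart from diet and drug in either comparison of HFD+Pio.

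The comparisons of HFD and of HFD+Pio with chow share the chow arrays. Other members did not pass against chow, with Ms4a7 at 0.84 ± 0.19 (adjusted p = 0.0659), Cd14 at 0.75 ± 0.17 (adjusted p = 0.0659) and Cx3cr1 at 0.80 ± 0.24 (adjusted p = 0.113). The median of the 30 was 1.00, with 28 positive and 17 not overlapping with chow (3.74% of all genes). Without the arrays of high T and B cell level, the median was 0.56. In the same comparison the medians were 2.33 for acinar, 1.84 for T cell, 1.09 for B cell and 1.23 for general leukocyte genes, with 0 called. Against HFD the median was 0.43, with 0 of 30 members called, 4 at an unadjusted p under 0.05 and 0.192% of all genes called. Cd14 was at 0.60 ± 0.17 (adjusted p = 0.188) and Cx3cr1 at 0.66 ± 0.24 (adjusted p = 0.323). Cd14, Trem2, Cx3cr1, Clec7a and Fcgr1 did not overlap between HFD+Pio and HFD, as did 1.72% of all genes. BL6 HFD+Pio mouse 3, with the highest T and B cell level of the study, was also the highest of its group for most members, and without it the median against HFD was -0.00.

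In BLKS islets no member passed between diets. The BLKS chow arrays lay on other slides than the HFD and HFD+Pio arrays, so slide and diet cannot be told apart against chow. HFD minus chow had a median of -0.01, with 15 of 30 positive and 0 called (0.0784% of all genes; 1 member at an unadjusted p under 0.05). C1qa had the smallest p, at -0.53 ± 0.15 (adjusted p = 0.208), and its HFD arrays lay below its chow arrays (3.58% of all genes; 1 member). HFD+Pio minus HFD had a median of -0.04 and 0 called (0.00435% of all genes; 1 at an unadjusted p under 0.05), and this was Mrc1. The arrays of HFD+Pio and HFD did not overlap for 1 member, again Mrc1 (1.74% of all genes), but it was not well above background on any BLKS array, so its values have no order there. HFD+Pio minus chow had a median of -0.01 and 0 called (0.0348% of all genes; 3 at an unadjusted p under 0.05), with C1qa at -0.43 ± 0.15 (adjusted p = 0.507), whose HFD+Pio arrays lay below its chow arrays (3.74% of all genes) and Cx3cr1 at -0.59 ± 0.24 (adjusted p = 0.577). Mrc1 was the other of the 3.

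**Figure D4:**
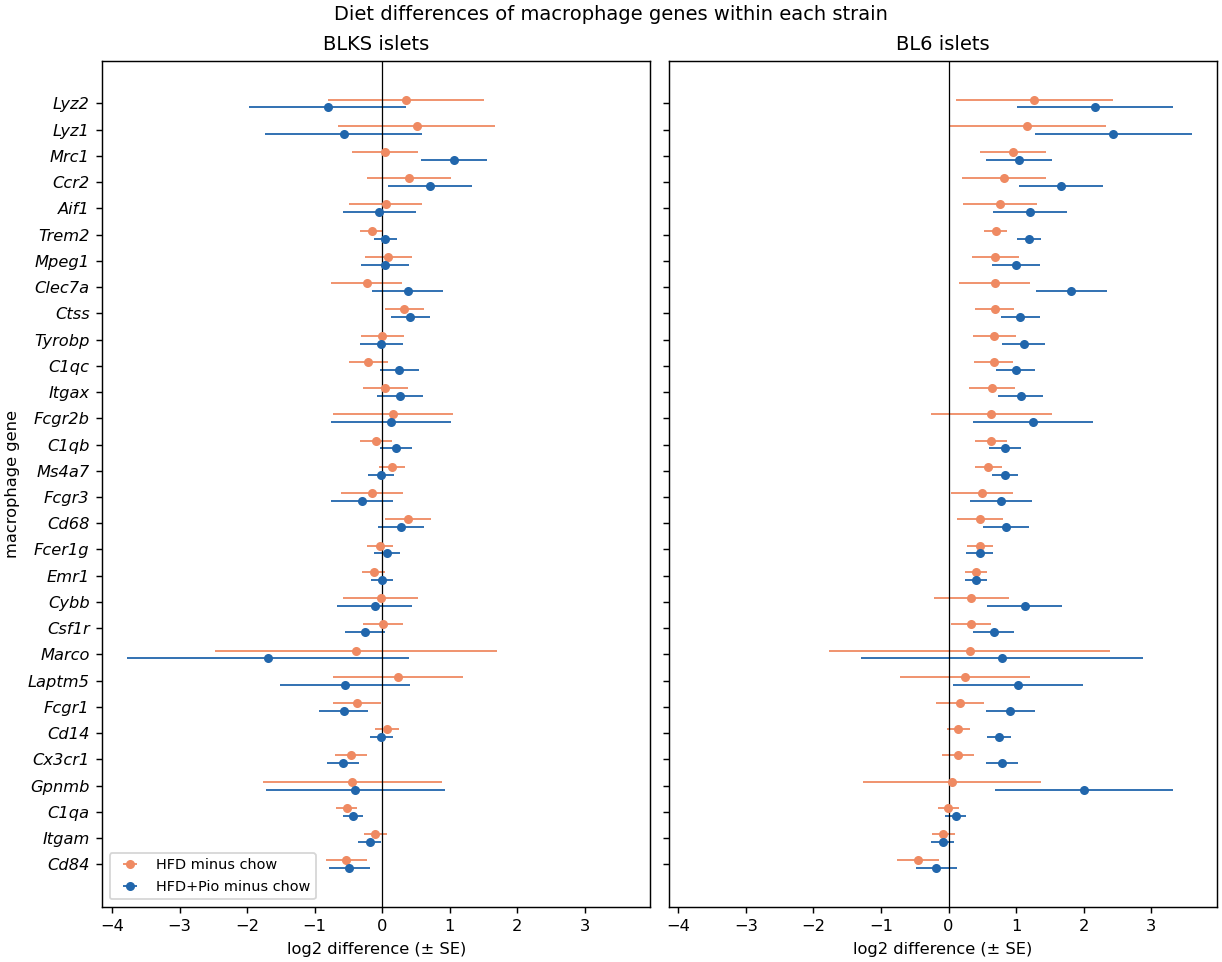
Log2 difference (x axis, ± SE) of each macrophage gene for HFD minus chow and HFD+Pio minus chow, in BLKS islets on the left and BL6 islets on the right. In BL6, 27 of 30 HFD values and 28 of 30 HFD+Pio values are right of 0, and in BLKS 15 and 12 are, where Mrc1 and Fcgr1 were not well above background.

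Whether the response to diet differed between the strains was tested as BLKS minus BL6 of the HFD minus chow difference. All 30 members had a negative value, with a median of -0.54 (from -0.92 to -0.01), and 0 passed, as for all genes (0%; 5 members at an unadjusted p under 0.05). The 30 include Fcgr1, Mrc1 and Ccr2, which were not well above background on any BLKS array of chow or HFD. Trem2 had the smallest p, at -0.85 ± 0.24 (adjusted p = 0.288), then C1qa at -0.52 ± 0.21 (adjusted p = 0.497) and Emr1 at -0.54 ± 0.23 (adjusted p = 0.528). The same test for HFD+Pio minus HFD gave a median of -0.47, with 25 of 30 negative and 0 called (0.00871% of all genes; 2 at an unadjusted p under 0.05), and Cd14 at -0.69 ± 0.24 (adjusted p = 0.466) and Cx3cr1 at -0.79 ± 0.33 (adjusted p = 0.591). Without the arrays of high T and B cell level these medians were -0.37 and -0.15. Chow and HFD arrays shared a slide in BL6 and lay on different slides in BLKS. HFD and HFD+Pio arrays shared a slide in BLKS and lay on different slides in BL6. A strain difference in response therefore cannot be told apart from slide in either test.

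Members differed in whether their slope on the T and B cell markers, from mouse to mouse, passed the test. With the group means in the fit, the slope on the marker mean was positive and passed for 17 of 30 members, where 7.6% of all genes did; 0 members and 18.8% of all genes had a negative slope that passed (26.4% in all). Marco was steepest at 1.41 ± 0.21 log2 units per log2 unit, then Gpnmb (0.90 ± 0.13), Lyz1 (0.85 ± 0.09), Lyz2 (0.85 ± 0.09), Laptm5 (0.72 ± 0.06) and Fcgr2b (0.66 ± 0.07). The 13 members that did not pass were Cx3cr1, Ccr2, Fcgr1, Mrc1, Ms4a7, Emr1, Trem2, Itgam, Cd84, Fcer1g, C1qa, C1qb and Cd14, with slopes from -0.06 to 0.27. The split is a cut at the threshold: Ccr2 (0.27 ± 0.10, adjusted p = 0.0503) fell just outside it. C1qc, with a smaller slope (0.12 ± 0.04, adjusted p = 0.0469), fell just inside. Fcgr1 and Mrc1 were not well above background on any BLKS array, which limits their slopes. Averaged over the strains' 3 diets, 12 of these 13 were lower and 1 higher in BLKS, and of the 17 that followed the markers 8 were lower and 0 higher, beside 34.5% lower and 30.1% higher of all genes; this split came from the same arrays and is a description.

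**Figure D5:**
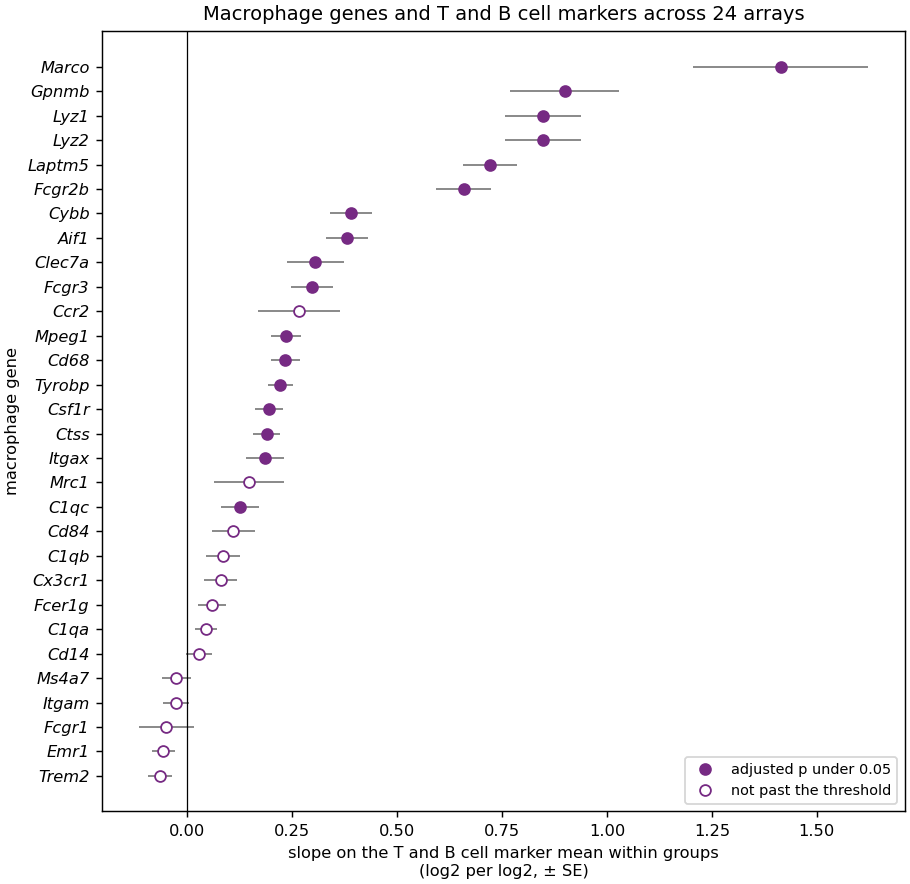
Slope of each macrophage gene on the mean of T and B cell markers across 24 arrays, with group means in the fit (x axis, log2 per log2, ± SE); filled points passed an adjusted p of 0.05. Marco, Gpnmb, Lyz1 and Lyz2 have the steepest slopes, and Trem2, Emr1, Fcgr1, Itgam and Ms4a7 lie at or below 0.

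With the 8 arrays of high T and B cell level left out, 12 members were lower and 2 higher in BLKS on chow, 20 and 2 on HFD, and 21 and 2 on HFD+Pio, beside 15.1%, 24.5% and 24.8% of all genes lower and 18%, 21.5% and 18.8% higher. This left only mice 1 and 3 of BLKS chow and mice 1 and 4 of BL6 HFD+Pio, and each other group lost a single mouse. Cx3cr1 was at -2.62 ± 0.23, -2.96 ± 0.21 and -3.53 ± 0.23 on the 3 diets. Cd68 joined Cd14 among the higher genes. Emr1 (adjusted p = 0.108) and Cd84 (adjusted p = 0.139) were no longer called on chow, nor were Cd84 on HFD (adjusted p = 0.0555) and Itgax on HFD+Pio (adjusted p = 0.0995). Fcgr3, Tyrobp, Aif1 and Laptm5 were then lower in BLKS on chow as well, with Laptm5 at -1.53 ± 0.41 (adjusted p = 0.0125). On HFD, Itgax, Mpeg1, Aif1, Csf1r and Fcgr2b were added to the lower genes, and on HFD+Pio Laptm5 and Fcgr2b.

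Macrophage genes outside the set were called in both directions. In a list of 45 other measured macrophage genes, 13 were higher and 8 lower in BLKS on chow, 11 and 10 on HFD, and 8 and 14 on HFD+Pio. Of all genes, 20.6%, 23.2% and 23% were higher and 20.9%, 26.7% and 22.8% lower on these diets. Tlr2, a receptor for bacterial lipoproteins, was higher in BLKS on chow, by 1.77 ± 0.15 (adjusted p = 1.08e-08), as was Il1b, the cytokine interleukin-1 beta, by 1.76 ± 0.27 (adjusted p = 2.13e-05). Tnf was not well above background on BL6 chow arrays and was at least 8.27-fold higher in BLKS (adjusted p = 1.33e-05). Tlr13, a nucleic-acid receptor, was lower in BLKS on chow, at -1.02 ± 0.10 (adjusted p = 9.86e-08). Sirpa, a checkpoint of phagocytosis, was lower on HFD, at -0.71 ± 0.09 (adjusted p = 8.52e-07). Apoe, the lipid carrier, was the single gene of that list to pass between HFD+Pio and chow in BL6, and was higher on HFD+Pio, by 1.07 ± 0.18 (adjusted p = 0.012).

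Of 10 measured ligands that attract or sustain macrophages, 7 were higher in BLKS on chow, 7 on HFD and 6 on HFD+Pio, and 0, 1 and 0 were lower, where 20.6%, 23.2% and 23% of all genes were higher and 20.9%, 26.7% and 22.8% lower. Ccl2, the ligand of Ccr2, was at 1.07, 1.33, -0.14 and 1.81 on chow, 3.17, 1.88, 4.31 and 1.19 on HFD, and 3.46, 1.78, 1.94 and 1.59 on HFD+Pio in BLKS islets. Ccl2 in BL6 islets was at -4.50, -4.74, -4.14 and -3.49 on chow, -2.49, -2.34, -4.15 and -3.29 on HFD, and -5.11, -4.44, -1.22 and -4.51 on HFD+Pio. All 12 BLKS arrays lay above all 12 BL6 arrays, while Ccr2 itself was lower in BLKS. The Ccl2 difference was 5.23 ± 0.75 (adjusted p = 9.37e-06) on chow, 5.71 ± 0.75 (adjusted p = 2.68e-06) on HFD and 6.01 ± 0.75 (adjusted p = 1.56e-06) on HFD+Pio. Csf1, the ligand of Csf1r, differed by 1.10 ± 0.19 (adjusted p = 9.71e-05) on chow, 1.58 ± 0.19 (adjusted p = 1.07e-06) on HFD and 0.91 ± 0.19 (adjusted p = 0.000589) on HFD+Pio. Cx3cl1, the ligand of Cx3cr1, differed by 0.64 ± 0.15 (adjusted p = 0.00131) on chow, 0.84 ± 0.15 (adjusted p = 7.76e-05) on HFD and 0.73 ± 0.15 (adjusted p = 0.000358) on HFD+Pio. Ccl2 was well above background on 2 of 4 BL6 arrays on chow, 4 on HFD and 2 on HFD+Pio, and on all 12 BLKS arrays. Many cell types of the islet make such ligands, and their source was not tested.

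Fabp4, a fatty acid carrier that PPAR-gamma controls in fat cells and macrophages, was higher in BL6 islets on HFD+Pio than on HFD, by 1.96 ± 0.23 (adjusted p = 0.000296). Cd36, a fatty acid transporter, was higher by 2.45 ± 0.31 (adjusted p = 0.000808). These were the 2 called of 16 measured genes in a list of lipid handling in macrophages, beside 0.192% of all genes. The BL6 HFD and HFD+Pio arrays lay on different slides, so slide and drug cannot be told apart in these calls. Fabp4 is also made by capillary endothelium and fat cells, and Adipoq was well above background on 0 arrays. In BLKS islets 0 of the 16 passed between HFD+Pio and HFD, beside 0.00435% of all genes. Fabp4 in BLKS was nevertheless at 2.66, 2.49, 2.12 and 1.70 on HFD and, without overlap, at 3.43, 3.09, 3.43 and 3.39 on HFD+Pio. Cd36 in BLKS was at -1.81, -2.16, -1.05 and -1.98 on HFD and at -0.62, -1.18, -1.23 and -0.53 on HFD+Pio, with overlap. The test of a difference between the strains in that response called 0 of the 16 (2 at an unadjusted p under 0.05), beside 0.00871% of all genes.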

How the data were processed

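Islet RNA of 24 mice was labelled with Cy3 and measured on 1-colour Agilent arrays, 4 arrays in each of 6 groups; groups came from the sample titles. Per the file headers, the deposited spot intensity was background-subtracted by the authors with Agilent Feature Extraction 10.7.3.1 and was not normalized between arrays. The authors' deposited value table is a ratio, the same intensity over 1 constant per array, and served as an alternative. Intensities were averaged per probe, taken as log2, and set relative to the 75th percentile of the array, which lay between 217.6 and 402.4 intensity units. Probes well above background on at least 4 of 24 arrays were kept (32750), and the brightest stood for its gene (22968 genes). Control spots were left out. limma 3.58.1 in R 4.3.3 (lmFit, eBayes) fitted 6 group means and 12 comparisons, with Benjamini-Hochberg adjustment over all genes and a threshold of 0.05. "At least" folds set the brighter group's mean against the higher of the dim probe's signal and the lowest signal well above background on each array.

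The members, the marker lists and the other gene lists were chosen with earlier results of these data known. Members were named with the values of all arrays where they passed in any comparison or were among the 3 smallest p-values of one. Same-numbered mice did not deviate together (median r of residuals 0.04, lowest -0.64, highest 0.72, over 60 pairs), so the fit has no block. The scripts were tested on simulated data. The number of arrays limits the precision, and values below background have no order. The comparison of groups sharing slides and the slopes on T and B cell markers were added after seeing the data.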

Additional observations from a re-analysis of the deposited data

Results flagged for a closer look

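The 4 values of each macrophage gene in each group formed 180 sets. In 21 of the 180 sets, 1 value stood apart from the other 3 by Dixon's criterion, where chance gives about 1 in 20. The sets are not independent, because the genes share arrays. All values are log2 relative intensities. On the BL6 HFD+Pio array of mouse 3, 7 genes stood above their group: Tyrobp at 3.35, C1qb at 2.70, C1qc at 3.21, Itgax at 2.22, Ccr2 at -1.06, Clec7a at 2.88 and Cybb at -0.79. That array had the highest T and B cell marker mean of the study, 2.16. On the BL6 HFD array of mouse 4, with a marker mean of 0.98, C1qb stood at 1.58, Lyz1 at 3.37, Itgax at 0.69 and Marco at 0.28. On the BL6 chow array of mouse 3, Marco was at -0.62 and Gpnmb at -4.81. On the BLKS HFD+Pio array of mouse 1, Cd68 was at 1.11, Lyz1 at 4.17, Lyz2 at 2.12 and Marco at 3.83. These last arrays were also among the 8 with high markers, and the part of the markers in these values was not tested.

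Single values apart were Fcer1g at 1.97 on BLKS HFD mouse 2, Trem2 at -2.23 on BLKS HFD mouse 3, Itgam at 5.80 on BL6 chow mouse 2 and Fcgr1 at -2.74 on BL6 HFD mouse 1. The probes of Msr1, which was not tested, were well above background on 3 and on 2 arrays.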

How the results depend on the processing

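The alternatives were run for the log2 differences that passed or had 1 of the 3 smallest p-values of a comparison, and none of these changed direction; the other probes of a gene are not among these alternatives, and those of Csf1r differed in direction. Over the alternatives that kept all mice or left out the arrays of high T and B cell level, 1065 values stayed on their side of the threshold, 22 fell below it and 3 passed it. With single mice left out these numbers were 1097, 36 and 3. The count for BL6 HFD+Pio against chow, 1 in the report, was 4 with normexp and quantile normalization, 2 with quantile normalization, 2 with probes well above background on all arrays and 2 with the T and B cell mean as a covariate. Ms4a7 joined Trem2 in the first 3. Of all genes, 64 were called in the report and 246, 176, 78 and 112 with these alternatives, so calls rose over the whole array as well. The chow strain count, 11 in the report, was 7 (6 lower, 1 higher) with probes well above background on all arrays, where dim members are not tested. Leaving out single mice gave 1 to 3 for BL6 HFD+Pio against chow. The count was 3 without BL6 HFD+Pio mouse 1 or 2, where 105 and 272 of all genes were called. Strain counts were 8 to 11 on chow, 14 to 20 on HFD, 17 to 23 on HFD+Pio and 20 to 24 over all diets. The other diet counts and both interaction counts stayed at 0. With the mouse number as a replicate block, the counts were 10 on chow, 17 on HFD, 21 on HFD+Pio, 21 over all diets and 1 for BL6 HFD+Pio against chow. Of all genes, 9759, 11679, 10718, 15039 and 65 were called in these comparisons. Slide as a fixed block could not be fitted for comparisons across slides. Dim members (Ccr2, Fcgr1, Mrc1, Cd84) are limited by signal near background.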
